A study of Mus musculus with 4 samples.

Results

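Voltage-gated calcium and sodium channel genes were examined in the cerebellum of mice lacking the histone demethylase KDM6B in the granule neuron lineage. They were taken by gene symbol from the calcium pore (Cacna1), alpha2delta (Cacna2d), beta (Cacnb) and gamma (Cacng) families and the sodium pore and beta families (Scn with a final a or b). Of the 55341 genes in the files, 38 such genes are described here, 19 pore and 19 auxiliary subunit genes. A gene was kept when it reached 1 CPM (counts scaled to the library total in genes, with TMM factors, which correct for a few very abundant genes, between libraries) in at least 2 libraries. This left 30 genes, 15 pore and 15 auxiliary, and all 30 were among the 16617 genes tested.

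RNA-seq was performed on cerebellar tissue at postnatal day 14 (P14) from 2 WT and 2 Kdm6b-cKO animals, 1 mouse per library, to ask how loss of KDM6B alters transcription while cerebellar granule neurons (CGNs) mature. Animals of both genotypes were littermates and carried floxed Kdm6b alleles (Kdm6b fl/fl). The cKO animals also carried Atoh1-Cre, a transgene that drives recombination in granule neuron precursors, so the deletion was not directed at the Purkinje cells and glia of the same tissue. The study used mice of both sexes and no treatment is given, and the strain background of these animals is not given in the sources used here.

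These channels open when a neuron depolarises. The pore subunit forms the ion path and sets the channel type, and auxiliary subunits govern how many channels reach the membrane and how they open and inactivate. In the cerebellum, sodium channels generate the action potentials of granule and Purkinje cells, P/Q-type and N-type calcium channels trigger transmitter release, and T-type channels support burst firing. Several gamma genes encode TARPs, proteins that carry AMPA-type glutamate receptors to the synapse rather than acting mainly on calcium channels.

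The libraries held 8811849 to 9892363 counts in genes, of which the 38 channel genes took 0.588%, 0.580%, 0.561% and 0.539% in WT 1, WT 2, cKO 1 and cKO 2. Kdm6b itself was at 154 and 154 CPM in WT versus 127 and 119 CPM in cKO (log2 fold change −0.33, SE 0.0758, edgeR adjusted p = 0.0162). Most of this tissue-wide level remained. Per the study, the loxP sites surround the exons of the catalytic Jumonji domain, while the counts cover all exons of the gene. The tissue also holds cells outside the Atoh1 lineage, so this level does not measure how far the deletion went. By Xist (0.431 CPM in WT 1, 1359 to 1599 CPM elsewhere) and Y-linked genes, WT 1 looked male and the remaining libraries female, so results are also given without WT 1. Choroid plexus markers summed to 685 CPM in cKO 1 and to 35.5 to 42.1 CPM elsewhere. None of the markers listed for CGNs or Purkinje cells was at 0 in every library.

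Of the 30 channel genes, 4 were lower in cKO and 1 was higher at an adjusted p below 0.05 in edgeR's quasi-likelihood test (called genes, adjusted over all 16617 genes). Scn2a and Scn1a of the sodium channels and Cacna1i and Cacnb2 of the calcium channels fell, and Scn3b, a sodium channel beta subunit, rose. The called genes made up 16.7% of the channel genes, where 4.04% of all tested genes were called in either direction. For genes lower in cKO the shares were 13.3% of the channel genes and 2.17% of all tested genes, and 1.87% of all tested genes were higher. A further 7 members had unadjusted p below 0.05 without passing after adjustment. In all, 12 of the 30 had such a p, beside 2710 of all 16617 tested genes. Fold changes of the called genes were small, between −0.42 and 0.39 on the log2 scale. When low-count genes were not filtered out, none of the 5 passed, with edgeR adjusted p of 0.0595 for Cacna1i, 0.127 for Cacnb2, 0.134 for Scn3b, 0.146 for Scn2a and 0.158 for Scn1a.

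Pore and auxiliary genes had different medians. Of the 15 pore genes, 3 fell, none rose, and 12 had a log2 fold change below 0, with a median of −0.21. That median was the value of Cacna1f, a gene at 1.51 to 2.37 CPM with a 95% interval of −1.12 to 0.70. The 9 calcium pore genes had a median of −0.063 and the 6 sodium pore genes one of −0.29. Of the 15 auxiliary genes, 1 fell and 1 rose, 8 lay above and 7 below 0, and the median was 0.029. The median over all tested genes was 0.0036. Set against the WT mean, the pore genes had medians of −0.17 in cKO 1 and −0.11 in cKO 2. The difference between the pore and auxiliary medians was not tested. Without WT 1 the pore median was −0.058, again the value of Cacna1f, and without cKO 1 it was −0.11. Groups did not overlap for 21 of the 30 genes, 13 lower and 8 higher in cKO, which is 70.0% against 46.4% of all tested genes. Some gaps were very small, as between WT 1 and cKO 1 for Cacna1c (lower, 146.27 against 146.16 CPM). For Cacna2d4 (higher), WT 2 was at 2.59 and cKO 1 at 2.62 CPM.

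**Figure D1:**
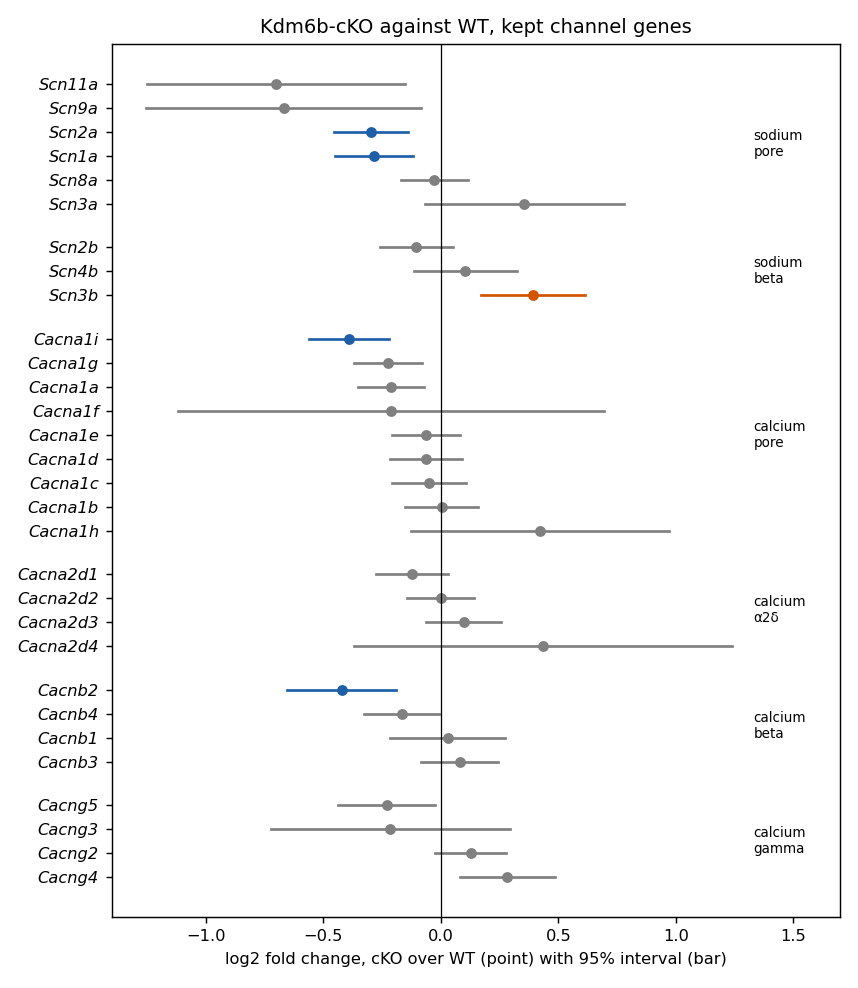
Log2 fold change of each kept channel gene, cKO over WT (point), with its 95% interval (bar), grouped by subunit role. Blue marks the 4 genes lower in cKO and orange the 1 higher at edgeR adjusted p below 0.05, and gray the 25 that did not pass. The called genes lie between −0.42 and 0.39, and the widest intervals belong to genes with low counts such as Cacna2d4 and Cacna1f.

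Among the sodium channel beta genes described here, which modulate the gating and membrane density of the pore, Scn3b rose. Scn3b, in GRCm38 on chromosome 9 from 40269217 to 40291618 (plus strand), encodes a beta subunit that binds the pore without a covalent bond and is known for expression in developing brain. It was at 37.4 and 35.5 CPM in WT versus 47.0 and 48.8 CPM in cKO. The groups did not overlap, and cKO was higher by 0.39 on the log2 scale (SE 0.106, edgeR adjusted p = 0.0404). Scn3b did not pass in DESeq2 (adjusted p = 0.192) or under upper-quartile scaling (0.0534). Scn2b and Scn4b encode the beta subunits that are joined to the pore by a disulfide bond. Scn2b was at 245 and 249 CPM in WT versus 247 and 213 CPM in cKO, with cKO 1 within the WT range (log2 fold change −0.10, adjusted p = 0.545). Scn4b, linked to the resurgent sodium current of Purkinje cells, was at 48.4 and 48.8 CPM in WT against 56.5 and 47.8 CPM in cKO, so that the WT values lay between those of cKO (log2 fold change 0.10, adjusted p = 0.697).

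Of the 6 sodium pore genes kept, Scn2a and Scn1a fell and Scn8a, the other abundant one, did not pass. Scn2a encodes the channel of the axon initial segment of many excitatory neurons and of unmyelinated axons, the parallel fibres of CGNs among them. It lies on chromosome 2, from 65620771 to 65767447 on the plus strand. Scn2a was at 399 and 379 CPM in WT versus 339.9 and 294 CPM in cKO. The cKO values lay below both WT values, and the log2 fold change was −0.30 (SE 0.0758, adjusted p = 0.0308), or −0.19 without cKO 2.

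Scn1a, the main channel of fast-spiking inhibitory neurons and also used by Purkinje cells, lies on the same chromosome from 66270778 to 66440840 (minus strand). It was at 149 and 134 CPM in WT versus 118 and 113 CPM in cKO. The groups did not overlap, although the gap from the lower WT to the higher cKO library was about the size of the gap between the WT libraries (log2 fold change −0.29, SE 0.0797, edgeR adjusted p = 0.0458). Scn1a did not pass in DESeq2 (adjusted p = 0.139), with library size alone (0.0708) or with a filter of 1 CPM (0.0532). Scn8a, which carries the persistent and resurgent current of Purkinje cells and sits at mature axon initial segments, was at 391 and 379 CPM in WT versus 372 and 384 CPM in cKO. Its groups overlapped, and the 95% interval of its log2 fold change ran from −0.17 to 0.11 around −0.027.

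The remaining sodium pores were scarce in this tissue. Scn3a, the channel of the fetal and early postnatal brain, was at 11.0 and 8.10 CPM in WT versus 11.6 and 12.9 CPM in cKO, with both cKO libraries above both WT ones (log2 fold change 0.36, SE 0.203, edgeR adjusted p = 0.416). Scn9a and Scn11a are best known from sensory neurons of the peripheral nervous system. Scn11a was at 6.69 and 9.93 CPM in WT versus 4.64 and 5.60 CPM in cKO (log2 fold change −0.70, adjusted p = 0.163). Scn9a was at 6.26 and 6.37 CPM in WT versus 4.33 and 3.58 CPM in cKO (log2 fold change −0.67, adjusted p = 0.229). Both had larger fold changes than the called genes but did not pass at these low levels. Summed over the 6 pores, the level was 963 and 916 CPM in WT versus 850.4 and 813 CPM in cKO. Within the sum of CPM per kb, Scn8a took 34.5% and 35.1% in WT and 37.4% and 40.7% in cKO, and Scn2a 43.5% and 43.3% against 42.4% and 38.5%. With 2 libraries per group the smallest two-sided p of an exact permutation test is 0.333, so shares were not tested.

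**Figure D2:**
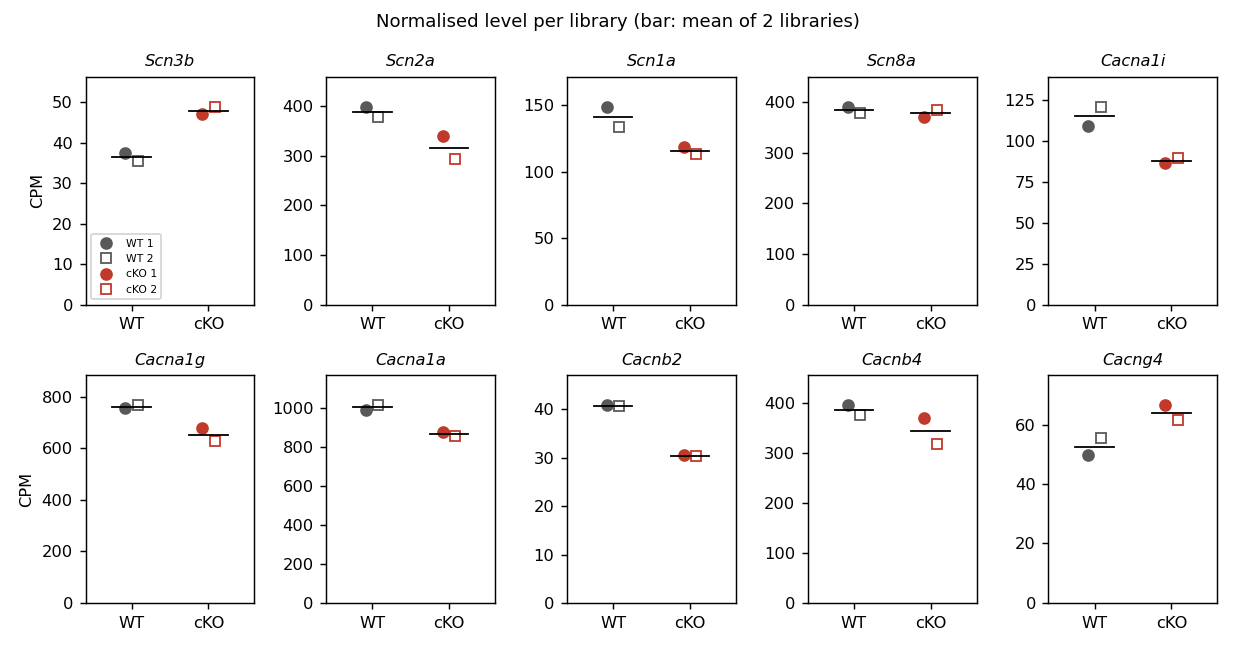
CPM of 10 channel genes in each library (points; filled circles replicate 1, open squares replicate 2), with the mean of each group as a bar and axes starting at 0. Scn2a, Scn1a, Cacna1i and Cacnb2 lie lower in both cKO libraries and Scn3b higher, Scn8a overlaps between groups, and Cacna1g, Cacna1a, Cacnb4 and Cacng4 are separated but did not pass after adjustment.

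Among the 9 calcium pore genes, 1 fell, and it encodes a T-type channel. Cacna1i lies on chromosome 15, from 80287238 to 80398279 on the plus strand. T-type channels open at low voltage and are active near the resting potential. Cacna1i was at 109 and 121 CPM in WT versus 86.3 and 89.4 CPM in cKO. Both cKO values lay below both WT values, a difference of −0.39 on the log2 scale (SE 0.0816, edgeR adjusted p = 0.00743).

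Cacna1g, the most abundant T-type gene here and one expressed in Purkinje cells and the deep cerebellar nuclei, had 756 and 767 CPM in WT versus 677 and 627 CPM in cKO. Its groups did not overlap, but it did not pass in edgeR (log2 fold change −0.22, SE 0.0700, adjusted p = 0.0810), while DESeq2 gave adjusted p = 0.0465 and limma-voom 0.0412. Cacna1h, the third T-type gene, was at 8.31 and 4.54 CPM in WT versus 8.37 and 8.85 CPM in cKO. WT 1 lay close to the cKO libraries and WT 2 below them (log2 fold change 0.42, SE 0.263, adjusted p = 0.464). The 3 T-type genes summed to 873 and 892 CPM in WT and to 772 and 725 CPM in cKO.

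The presynaptic types ranged from a separated decrease to no measurable change. Cacna1a encodes the P/Q-type pore, the main calcium channel of Purkinje cells and of parallel fibre terminals, and was the calcium pore gene with the highest level per kb of exon (87.7 CPM per kb in WT). It was at 990.4 and 1013 CPM in WT versus 875 and 855 CPM in cKO. The groups were separated, yet the gene did not pass in edgeR (log2 fold change −0.21, SE 0.0669, adjusted p = 0.0849), while DESeq2 gave 0.0329 and limma-voom 0.0376. The antisense gene Gm16183 shares 3.81% of the exon bases of Cacna1a and had 97.5 and 92.5 CPM in WT versus 79.2 and 84.0 CPM in cKO. The strand setting of the counting is not given in the sources used here. It is thus not known whether reads over those bases were dropped or assigned by strand.

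Cacna1e, the R-type pore, was at 854 and 843 CPM in WT versus 837 and 788 CPM in cKO. The separation was small beside the spread of the cKO libraries (log2 fold change −0.063, 95% interval −0.21 to 0.080). Cacna1b, the N-type pore, was at 154 CPM in WT versus 155 CPM in cKO on average, with a log2 fold change of 0.0032 and an interval of −0.15 to 0.16. An interval of this width leaves room for a small change in either direction.

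None of the L-type genes passed in edgeR, DESeq2 or limma-voom, or had an unadjusted edgeR p below 0.05. Cacna1d and Cacna1c, the L-type pores of brain that couple activity to transcription, averaged 201 and 146 CPM in WT versus 193 and 141 CPM in cKO, with log2 fold changes of −0.061 and −0.049. Cacna1f, the L-type pore of photoreceptors, was near the detection limit at 1.51 to 2.37 CPM (log2 fold change −0.21), and DESeq2 gave it no adjusted p. The L-type genes summed to 361 and 339 CPM in WT versus 340.2 and 333 CPM in cKO, so WT 2 and cKO 1 were alike.

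Among the calcium channel beta subunits, which sit inside the cell, bind the pore and bring it to the membrane, Cacnb2 fell. Cacnb2 lies on chromosome 2, from 14603088 to 14987908 on the plus strand. It was at 40.9 and 40.7 CPM in WT versus 30.5 and 30.4 CPM in cKO. The libraries of each group nearly coincided and the groups were apart (log2 fold change −0.42, SE 0.112, edgeR adjusted p = 0.0370). Cacnb2 did not pass in DESeq2 (adjusted p = 0.202) or with library size alone (0.0509). It shares 7.32% of its exon bases with Gm10848, Gm10849 and Gm13269, each of which was below 1 CPM in every library. Cacnb2 was the scarcest of the 4 beta genes per kb of exon, at 3.08 CPM per kb in WT.

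The most abundant beta gene, Cacnb4, whose loss causes ataxia and seizures in lethargic mice, was at 396 and 376 CPM in WT versus 370.0 and 318 CPM in cKO. The cKO libraries lay below WT, but cKO 1 only slightly, and the gene did not pass (log2 fold change −0.17, SE 0.0764, adjusted p = 0.279). It shares 16% of its exon bases with A430018G15Rik, which averaged 107 CPM in WT versus 91.1 CPM in cKO. Cacnb3 was at 92.0 and 94.3 CPM in WT versus 97.5 and 99.6 CPM in cKO (log2 fold change 0.081), and Cacnb1, the beta subunit of skeletal muscle that is also made in brain, at 31.0 and 33.3 CPM in WT versus 33.4 and 32.1 CPM in cKO (log2 fold change 0.029). Neither passed. Cacnb4 made up 57.3% and 55.3% of the summed CPM per kb of the 4 beta genes in WT against 54.9% and 50.9% in cKO, and Cacnb2 made up 4.01% and 4.06% against 3.07% and 3.29%.

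**Figure D3:**
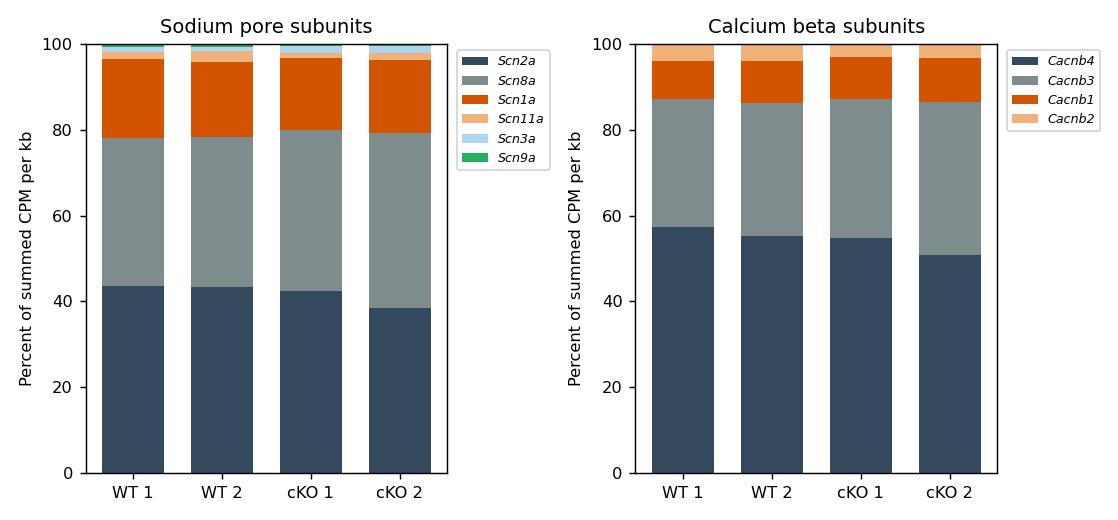
Share of each gene in the summed CPM per kb of exon, in percent, for the sodium pore genes (left) and the calcium beta genes (right), with 1 stacked bar per library. Scn8a takes 34.5% and 35.1% of the sodium pore sum in WT and 37.4% and 40.7% in cKO, and Cacnb2 takes 4.01% and 4.06% of the calcium beta sum in WT and 3.07% and 3.29% in cKO.

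No alpha2delta gene was called by edgeR, DESeq2 or limma-voom, and none had an unadjusted edgeR p below 0.05. These subunits lie on the outer face of the membrane, raise the number of channels at the surface, and include the targets of gabapentin (the products of Cacna2d1 and Cacna2d2). Cacna2d2, which is abundant in Purkinje cells, was at 213 and 209 CPM in WT versus 214 and 208 CPM in cKO. Its log2 fold change was −0.00048 with a 95% interval of −0.14 to 0.14, the closest to 0 of the 30 genes. Cacna2d1 was at 172 and 168 CPM in WT versus 159 and 153 CPM in cKO (log2 fold change −0.12, adjusted p = 0.441). Cacna2d3 was at 119 and 121 CPM in WT versus 131 and 125 CPM in cKO (log2 fold change 0.097, adjusted p = 0.586). These differences, in opposite directions, were separated between groups but did not pass. Cacna2d4, best known from retina, had 2.05 and 2.59 CPM in WT versus 2.62 and 3.70 CPM in cKO (log2 fold change 0.44, SE 0.386). DESeq2 gave this gene no adjusted p.

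The gamma genes that were detected all encode TARPs, and none was called by these tools, although 2 (Cacng4 and Cacng5) had an unadjusted edgeR p below 0.05. Cacng2 encodes stargazin, which CGNs need to place AMPA receptors at their mossy fibre synapses, and it was the most abundant at 216 and 243.5 CPM in WT versus 248 and 253 CPM in cKO. The cKO libraries were higher, but the gap between the groups was smaller than that between the WT libraries (log2 fold change 0.13, SE 0.0723, adjusted p = 0.413). Cacng4, a TARP prominent in young brain, was at 49.7 and 55.5 CPM in WT versus 66.5 and 61.4 CPM in cKO. It was higher in both cKO libraries and had an unadjusted p of 0.00842, but did not pass (log2 fold change 0.28, SE 0.0970, edgeR adjusted p = 0.117). Cacng5, found in Bergmann glia among other cells, was at 64.1 and 56.0 CPM in WT versus 50.1 and 52.3 CPM in cKO (log2 fold change −0.23, adjusted p = 0.241). Cacng3 was at 5.75 to 8.20 CPM with overlapping groups (log2 fold change −0.21), and DESeq2 gave it no adjusted p.

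**Figure D4:**
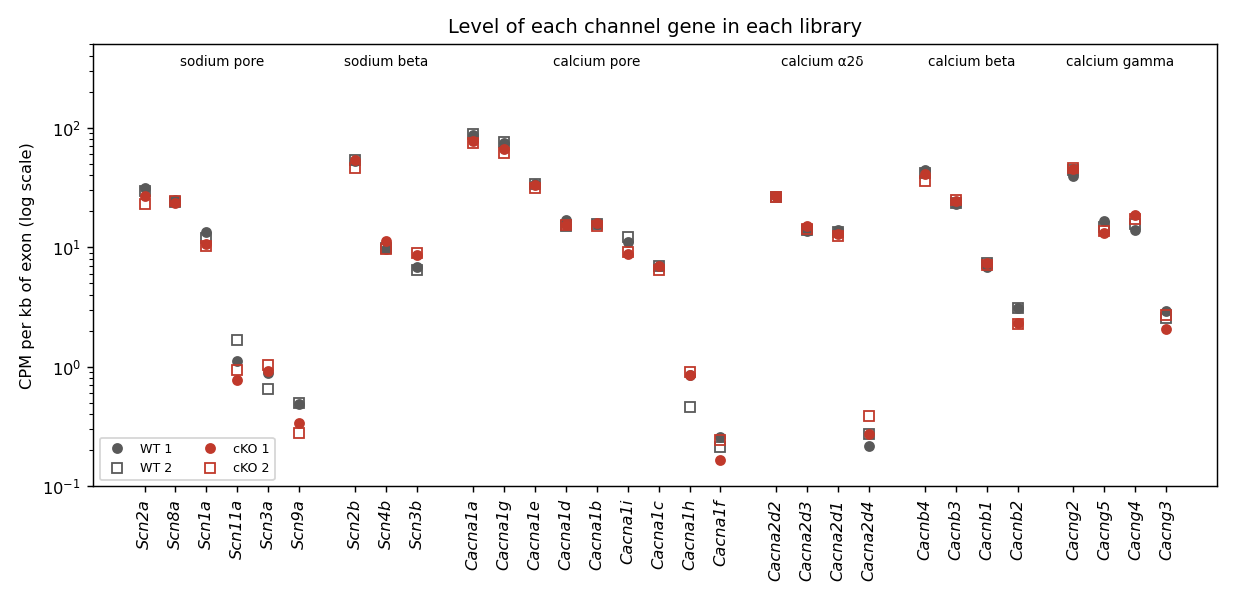
Level of each of the 30 kept channel genes in each library, in CPM per kb of exon on a log axis, grouped by subunit role and ordered by level (gray WT, red cKO; circles replicate 1, squares replicate 2). Levels in WT span from 0.237 CPM per kb for Cacna1f to 87.7 CPM per kb for Cacna1a, and the distance between genotypes is small beside the distance between genes.

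The spread of levels between genes was far wider than the difference between genotypes. Per kb of exon, the highest WT levels were those of Cacna1a (87.7), Cacna1g (75.1), Scn2b (53.0), Cacnb4 (43.1) and Cacng2 (41.7 CPM per kb). The called genes lay lower in this range, from Scn2a at 30.5 CPM per kb to Cacnb2 at 3.08 CPM per kb. The members were long genes, with a median exon length of 9620.5 bp against 4039 bp over the tested genes. Of the 1613 tested genes at least that long, 3.78% were lower and 2.48% higher in cKO, with a median log2 fold change of −0.017. Offsets for GC content and length left the same 5 genes called.

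The remaining 8 of the 38 genes did not reach 1 CPM in 2 libraries, and 3 counts in a library correspond to 0.302 to 0.336 CPM. In the order WT 1, WT 2, cKO 1, cKO 2, counts were 8, 8, 2 and 2 for Cacna1s, the L-type pore of skeletal muscle. Skeletal muscle markers summed to 7.77, 6.37, 3.93 and 3.58 CPM in the same libraries, and their part in the Cacna1s counts was not tested. Scn7a had 15, 4, 4 and 2 counts, and Scn4a, the pore of skeletal muscle, 0, 0, 3 and 1. Scn10a, Cacng1, Cacng6 and Cacng8 were listed at 0 in every library, and Cacng7 had 1 count in WT 1.

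Cacng7 and Cacng8 encode TARPs known from brain, so their near absence stands out. They lie side by side with Cacng6 between 3332955 and 3435667 of chromosome 7, and these 3 genes together had 1 count over the 4 libraries. No level can be given for them, and the cause was not tested.

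Promoter sequences of the called pore genes are shown because CpG-rich starts are where the histone mark removed by KDM6B is usually placed, as background to these genes. No chromatin was measured in these libraries. The windows are RefSeq starts of GRCm38.p6. The 150 bases before the start are printed, 5′ to 3′ on the strand of the gene, with each CpG (the letters CG, the same on both strands) in capitals. The genomic positions are chr15:80287088-80287237 (plus) for Cacna1i, chr2:65620619-65620768 (plus, the first of its starts) for Scn2a and chr2:66440838-66440987 (minus) for Scn1a.
Cacna1i: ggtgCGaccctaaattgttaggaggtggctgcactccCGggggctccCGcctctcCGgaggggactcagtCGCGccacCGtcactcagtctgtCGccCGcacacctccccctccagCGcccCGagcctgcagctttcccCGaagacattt
Scn2a: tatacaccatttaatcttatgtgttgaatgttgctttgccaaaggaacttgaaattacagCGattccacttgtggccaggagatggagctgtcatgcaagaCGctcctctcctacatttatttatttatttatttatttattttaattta
Scn1a: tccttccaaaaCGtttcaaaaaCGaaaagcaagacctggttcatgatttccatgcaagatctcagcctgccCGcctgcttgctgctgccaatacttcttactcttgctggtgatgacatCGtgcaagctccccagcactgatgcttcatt

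The Cacna1i start was the densest of these, with 16 CpG in 250 upstream bases, more than in 74.6% of the 32851 windows of all genes. The Scn1a start had 4, more than in 37.8%, and the first Scn2a start had 2, more than in 18.8%. The second Scn2a start, whose sequence is not printed, had 9, more than in 59.7%. Over all windows the median was 6 CpG and 92.1% held at least 1. A window was found for 23 of the 30 channel genes, and their 34 windows had a median of 9. The 3 called pore genes thus included starts on both sides of the median of all genes, and these counts describe the sequences only. Of the called auxiliary genes, Cacnb2 had starts with 30 and 3 CpG, more than in 94.1% and 29% of all windows. Their sequences are not printed, and no window was found for Scn3b.

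Genes that bind, anchor or act beside these channels were read from the same fit. Of 49 tested partner genes, 2 were lower and none higher in cKO, which is 4.08% against the 4.04% of all tested genes. Snap25, a membrane fusion protein that binds presynaptic calcium channels, was at 1218 and 1221 CPM in WT versus 1010.4 and 934 CPM in cKO (log2 fold change −0.33, SE 0.0678, edgeR adjusted p = 0.00704). Unc80, a subunit of the sodium leak channel complex that sets resting excitability, was at 439 and 408 CPM in WT versus 369 and 335 CPM in cKO (log2 fold change −0.27, SE 0.0727, adjusted p = 0.0408). Both were separated between groups. Ryr3, a calcium release channel of the endoplasmic reticulum, came next by p and did not pass, at 20.6 and 21.5 CPM in WT against 16.5 and 11.4 CPM in cKO (log2 fold change −0.58, adjusted p = 0.0605). Of the 13 sodium channel partners and axon initial segment genes, none was called, 3 had an unadjusted p below 0.05, 7 had a log2 fold change above 0 and the median was 0.020. At an unadjusted p below 0.05 there were 15 of the 49 partner genes, 13 of them lower in cKO. Over all tested genes there were 2710 of 16617, of which 1412 were lower. DESeq2 and limma-voom each called 3 partner genes lower and none higher. In all they called 324 of 9306 and 648 of 16617 tested genes.

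Markers of the stages of CGN maturation moved with genotype beside the channel genes. The lists were chosen with earlier results of these data known. The mature list holds Grin2c and Grm4, which the study gave as examples of lost expression in cKO. The marker counts are thus no independent evidence of a shift. Called lower in cKO were 2.17% of all tested genes, and 1.87% were called higher. Of 10 markers of mature CGNs, 8 were lower and none higher, and they summed to 6046 and 6234 CPM in WT versus 5213 and 4530 CPM in cKO. Of 11 markers of newly postmitotic neurons, 7 were higher and none lower, with sums of 2372, 2502, 2813 and 3436 CPM. Progenitor markers summed to 195, 219, 262 and 389 CPM, with 5 of 9 tested genes higher and none lower. Purkinje cell markers had 2 lower and 1 higher of 10 and summed to 8749, 8600, 8078 and 7431 CPM. Interneuron, Golgi and unipolar brush cell markers had 2 lower and none higher of 10, with sums of 1019, 1033, 931 and 893 CPM. Of 10 Bergmann glia and astrocyte markers 4 were lower and 1 higher, and of 12 oligodendrocyte markers 3 were lower and 2 higher, with sums of 9482 and 9015 CPM in WT versus 8249 and 8372 CPM in cKO. The part of these shifts in the channel results was not tested, and in whole tissue fewer cells of a type and less RNA per cell cannot be told apart.

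The 5 called genes kept their sign with each library left out, which follows from groups that do not overlap and is no separate support. The calls depended on which library was left out. Without WT 1, where all libraries had the female pattern, the log2 fold changes were −0.46 for Cacna1i, −0.42 for Cacnb2, −0.26 for Scn2a, −0.21 for Scn1a and 0.43 for Scn3b, and of these only Cacna1i still passed. Without WT 2, only Scn2a of the channel genes passed. Without either cKO library no channel gene passed, and neither did any of the other tested genes. Leaving out cKO 1 gave log2 fold changes of −0.36 for Cacna1i, −0.43 for Cacnb2, −0.40 for Scn2a, −0.32 for Scn1a and 0.42 for Scn3b. In the same order, leaving out cKO 2 gave −0.41, −0.42, −0.19, −0.25 and 0.37. Cacnb2 varied least, from −0.43 to −0.42, and Scn2a most by ratio, from −0.40 to −0.19.

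**Figure D5:**
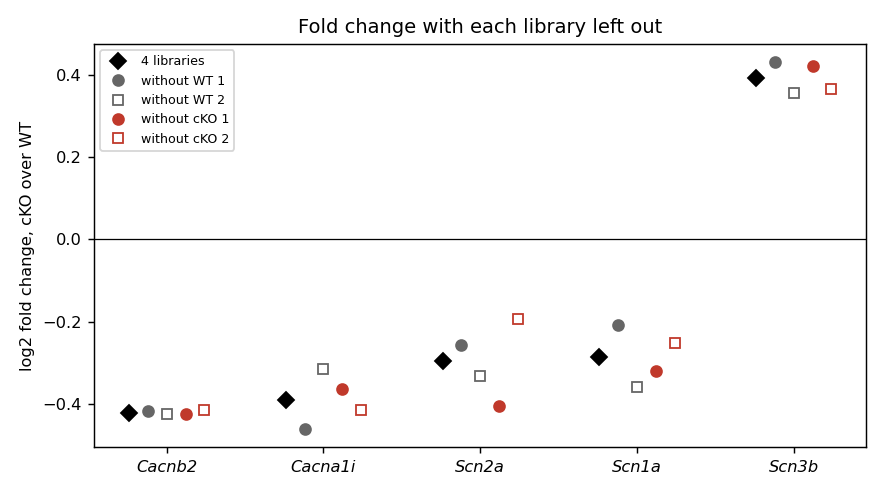
Log2 fold change, cKO over WT, of the 5 called channel genes with all 4 libraries (diamond) and with each library left out in turn (gray without a WT library, red without a cKO library; circles replicate 1, squares replicate 2). No point crosses 0, which follows from groups that do not overlap. The points for Cacnb2 nearly coincide while those for Scn2a run from −0.40 to −0.19.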

How the data were processed

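RNA-seq counts of cerebellar tissue at postnatal day 14 were analysed for 2 WT and 2 Kdm6b-cKO libraries, grouped by sample title. Where the description gave another replicate number, the title was used. Per the study's methods and the submitters' processing notes, the authors enriched poly(A) RNA, used Trimmomatic 0.38 for trimming, STAR 2.7.2b for alignment to GRCm38 (mm10) and HTSeq for counting over exons. The deposited files hold raw whole-number counts for each gene symbol. Entries that name no gene (59.5% to 61.0% of a library) were left out. HTSeq drops reads shared between overlapping or near-identical genes, and the strand setting is not given in the sources used here.

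From these counts, genes passing filterByExpr of edgeR 4.0.16 in R 4.3.3 (16617) were scaled by TMM (factors 0.986 to 1.02) and tested with glmQLFit and glmQLFTest (two-sided), with Benjamini-Hochberg adjustment over all of them and a threshold of 0.05. Levels are edgeR CPM, also divided by exon length from GENCODE M21. Standard errors were derived from the F statistic of each gene. Replicate libraries were not duplicates of each other (chi-square over its degrees of freedom was 3.72 in WT, 4.04 in cKO). The script was tested on simulated data. DESeq2 1.42.0, limma-voom (limma 3.58.1), other scalings and filters, GC and length offsets, a block on the replicate number, and leaving out each library were alternatives. Some genes that the rule takes are not reported here, and counts over members leave them out. Every other kept member is named. Values per library are given for members past the threshold, for separated groups with an absolute log2 fold change of at least 0.2, and for the 3 most abundant of a role. Partner genes are named past the threshold, or else the 3 smallest p. Members and lists were chosen with earlier results of these data known.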

Additional observations from a re-analysis of the deposited data

How the results depend on the processing

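With 2 libraries per group, a fit that leaves 1 alone assumes that it varies like the other group. Of the 30 channel genes, 5 passed. Without the low-count filter edgeR tested 28952 genes, of which 2789 had an unadjusted p below 0.05, among them 11 channel genes. The count of channel genes passing was 0 in that fit, beside 177 of all tested genes, and 3 with library size alone, beside 726. It was 4 to 7 under RLE or upper-quartile scaling, a 1 CPM filter, DESeq2, limma-voom and offsets, with 324 to 673 over all genes. With each library left out it was 0 to 1. No called channel gene changed sign in any of the 14 alternatives. With a library left out this follows from the separated groups. DESeq2 did not call Cacnb2, Scn1a or Scn3b (adjusted p 0.202, 0.139 and 0.192), upper-quartile scaling not Scn3b (0.0534), library size alone neither Cacnb2 (0.0509) nor Scn1a (0.0708), and the 1 CPM filter not Scn1a (0.0532). The median log2 fold change of the pore genes was −0.21, and −0.19 to −0.058 with a library left out, where that of the auxiliary genes ran from −0.020 to 0.083 (with all libraries 0.029). Over all genes 671 passed, against 177 with no filter, 324 in DESeq2 and 0 to 507 with a library left out. Of these, 53.8% were lower in cKO, against 63.0% under upper-quartile scaling and 40.2% with library size alone. Partner genes numbered 2, against 1 with library size alone, 1 with no filter, and 0 to 1 with a library left out. The cause of these differences was not tested. Replicate numbers were not treated as pairing (correlation of same-numbered deviations 0.0434). A replicate block gave 5 channel genes, 1130 genes in all and 4 partner genes, and 4 partner genes also with offsets.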
